A study of Mus musculus with 2 samples.

Results

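Cholesterol synthesis and its control were followed in mouse aortic vascular smooth muscle cells (VSMCs) through 37 genes: 19 enzymes of the mevalonate and sterol pathway, 7 genes of the SREBP factors and their processing, 3 genes of sterol transport, esterification and efflux, 6 genes of fatty acid synthesis, and the 2 liver X receptors. The genes were chosen by name from knowledge of the pathway, with no measured value in the rule. Earlier results of these data were known at that choice. Only genes present in the table of 11263 genes were taken, so their presence says nothing of how much of the pathway was covered. According to the study, primary VSMCs from aortas of male mice were infected with an adenovirus encoding Klf5 (Ad-Klf5, titled Ad-K5 in the labels) or with the GFP adenovirus (Ad-GFP), and RNA was sequenced. The labels name 1 library per condition. Their text names another cell line, a lentivirus and another medium, so the cells and virus are given here as the study states them. Klf5 is a zinc-finger transcription factor of the Krueppel-like family. The labels give strain C57BL/7 for Ad-Klf5 and C57BL/6 for Ad-GFP, and they name no deletion, transgene or age. If the strains truly differed, strain and infection cannot be told apart in any value given here. Whether cells of several animals were pooled is not given in the sources used here.

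Cells make cholesterol from acetyl-CoA. The mevalonate branch builds farnesyl diphosphate, which also feeds protein prenylation, ubiquinone and dolichol, and the squalene branch closes and trims the sterol rings. The SREBP transcription factors, encoded by Srebf1 and Srebf2, are held in the endoplasmic reticulum membrane by Scap and the Insig proteins when sterols are plentiful. When sterols are low they move to the Golgi, where the proteases encoded by Mbtps1 and Mbtps2 release the part that enters the nucleus and activates the genes of both branches and of fatty acid synthesis. Liver X receptors respond to oxysterols and activate genes of cholesterol efflux, and they also activate Srebf1.

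The most uniform group among these genes was the enzymes of the pathway. All 19 sterol synthesis enzymes had more FPKM in Ad-Klf5 than in Ad-GFP, by small amounts that never reached 2-fold. Their summed level was 981 FPKM in Ad-Klf5, against 781 FPKM in Ad-GFP. That is a 1.26-fold difference, beside 1.08-fold for the summed FPKM of all genes. FPKM, the fragments of a gene relative to transcript length and library size, is a level per length and can be compared between genes. The difference of a gene is given as its log2 ratio, log2(FPKM + 1) in Ad-Klf5 minus log2(FPKM + 1) in Ad-GFP, which understates the difference of genes at low FPKM. The 7 genes of the SREBP factors and their processing summed to 345 FPKM in Ad-Klf5, against 389 FPKM in Ad-GFP. That gap in the sum lay mostly in Srebf2, since the other 6 summed to 159 FPKM in Ad-Klf5 and 163 FPKM in Ad-GFP. Differences of opposite sign partly cancelled in the sums of these 6. Of their ratios 2 were above 0 and 4 below 0 (median -0.15), beside 52.1% of all genes below 0. With 1 labelled library per condition there is no replicate check, no spread between cultures and no p-value for any of these differences, and neighbouring values in any order given here cannot be separated.

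Because SREBPs share their target promoters with other factors, the promoter letters of the genes with the 3 highest ratios, Msmo1, Sc5d and Idi1, and of the gene with the lowest ratio, Mbtps1, are shown. Hmgcs1 was added after it was seen to be the only one of the 31 genes with a promoter entry whose window held TCACNCCAC. Each line gives the 250 bases before the RefSeq start of the gene on GRCm38.p6, 5′ to 3′ on the gene's own strand, and capitals mark matches on either strand to TCACNCCAC (the SREBP consensus searched), CCAAT (the NF-Y box), GGGCGG (a GC box) and CACCC (a box of Krueppel-like factors). A CACCC can lie inside a TCACNCCAC, as it does in Hmgcs1. The RefSeq start can differ from the start of the measured gene, and the windows of Msmo1 and Idi1 lie partly inside the loci given for them below. The windows are chr8:64733579-64733828 on the minus strand for Msmo1, chr9:42264301-42264550 on the minus strand for Sc5d, chr13:8885356-8885605 on the plus strand for Idi1, chr8:119558762-119559011 on the minus strand for Mbtps1 and chr13:119690101-119690350 on the plus strand for Hmgcs1.
Msmo1: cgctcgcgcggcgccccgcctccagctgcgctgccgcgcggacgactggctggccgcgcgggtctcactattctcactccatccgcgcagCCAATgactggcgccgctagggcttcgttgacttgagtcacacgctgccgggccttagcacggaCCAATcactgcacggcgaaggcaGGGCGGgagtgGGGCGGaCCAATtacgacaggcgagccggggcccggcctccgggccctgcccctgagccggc
Sc5d: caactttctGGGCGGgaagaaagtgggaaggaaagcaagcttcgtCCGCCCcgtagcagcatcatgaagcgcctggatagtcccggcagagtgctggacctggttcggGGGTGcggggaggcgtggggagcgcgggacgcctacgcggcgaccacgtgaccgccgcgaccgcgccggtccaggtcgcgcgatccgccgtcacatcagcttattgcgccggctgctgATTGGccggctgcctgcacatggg
Idi1: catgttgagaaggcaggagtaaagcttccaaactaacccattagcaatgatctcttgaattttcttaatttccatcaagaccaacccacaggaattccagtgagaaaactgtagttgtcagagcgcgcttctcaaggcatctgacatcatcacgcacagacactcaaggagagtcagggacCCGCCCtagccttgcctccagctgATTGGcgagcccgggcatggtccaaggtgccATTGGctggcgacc
Mbtps1: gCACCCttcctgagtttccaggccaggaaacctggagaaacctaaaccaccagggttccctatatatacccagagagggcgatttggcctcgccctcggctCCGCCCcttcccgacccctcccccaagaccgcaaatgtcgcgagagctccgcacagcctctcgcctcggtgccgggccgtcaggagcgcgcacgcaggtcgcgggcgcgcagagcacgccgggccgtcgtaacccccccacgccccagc
Hmgcs1: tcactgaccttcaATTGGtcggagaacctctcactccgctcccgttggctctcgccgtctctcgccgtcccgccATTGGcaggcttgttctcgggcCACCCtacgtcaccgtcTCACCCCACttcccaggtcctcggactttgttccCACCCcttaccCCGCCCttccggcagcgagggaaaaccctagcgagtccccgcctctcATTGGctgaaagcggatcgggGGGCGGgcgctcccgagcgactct

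In these letters Msmo1 held 3 CCAAT boxes and 2 GC boxes, Sc5d 1 and 2, and Idi1 2 and 1, whereas Mbtps1 held a GC box and no CCAAT box. Over the 300 bases from 250 before to 50 after the start, CCAAT was found in 15 of the 16 synthesis enzymes with an entry (93.8%). It was found in 22 of the 31 genes of the whole set (71.0%), in 43.8% of the 7971 genes kept in the comparison that have an entry, and in 41.1% of all 27025 genes with an entry. Pmvk and Mvk, like Srebf1 and Srebf2, were among the genes with a CCAAT box, and Acat2 was the enzyme without one. GGGCGG was in 14 of the 16 enzymes (87.5%) and in 72.6% of the genes kept, CACCC in 10 of the 16 (62.5%) and in 66.7% of the genes kept, and TCACNCCAC in 1.44% of the genes kept. A match of letters is a description and no binding was measured. Squalene epoxidase Sqle, Fdft1, Fdps, Stard4, Scd1 and Scd2 had no entry.

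Genes averaging 1 FPKM or more over both libraries numbered 10157, and in Ad-Klf5 0.975% of these were higher than in Ad-GFP by a factor of 2 or more and 0.679% lower. A total of 36 of the 37 sterol and lipid genes passed that minimum, and none of them was 2-fold apart in either direction. Of these 36, 25 had a ratio above 0 and 11 below 0, beside 47.9% of all genes above 0. Their median ratio was 0.23, against -0.017 over all genes, and their ratios ran from -0.42 for Mbtps1 to 0.69 for Msmo1. The 19 synthesis enzymes (median 0.35) lay between 0.15 and 0.69. The other 17 genes had a median of -0.12, with 6 above 0 and 11 below, beside 52.1% of all genes below 0. The standard deviation of the ratio over all genes kept was 0.39, so most of the 36 ratios lay within 1 such deviation of the median of all genes.

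**Figure D1:**
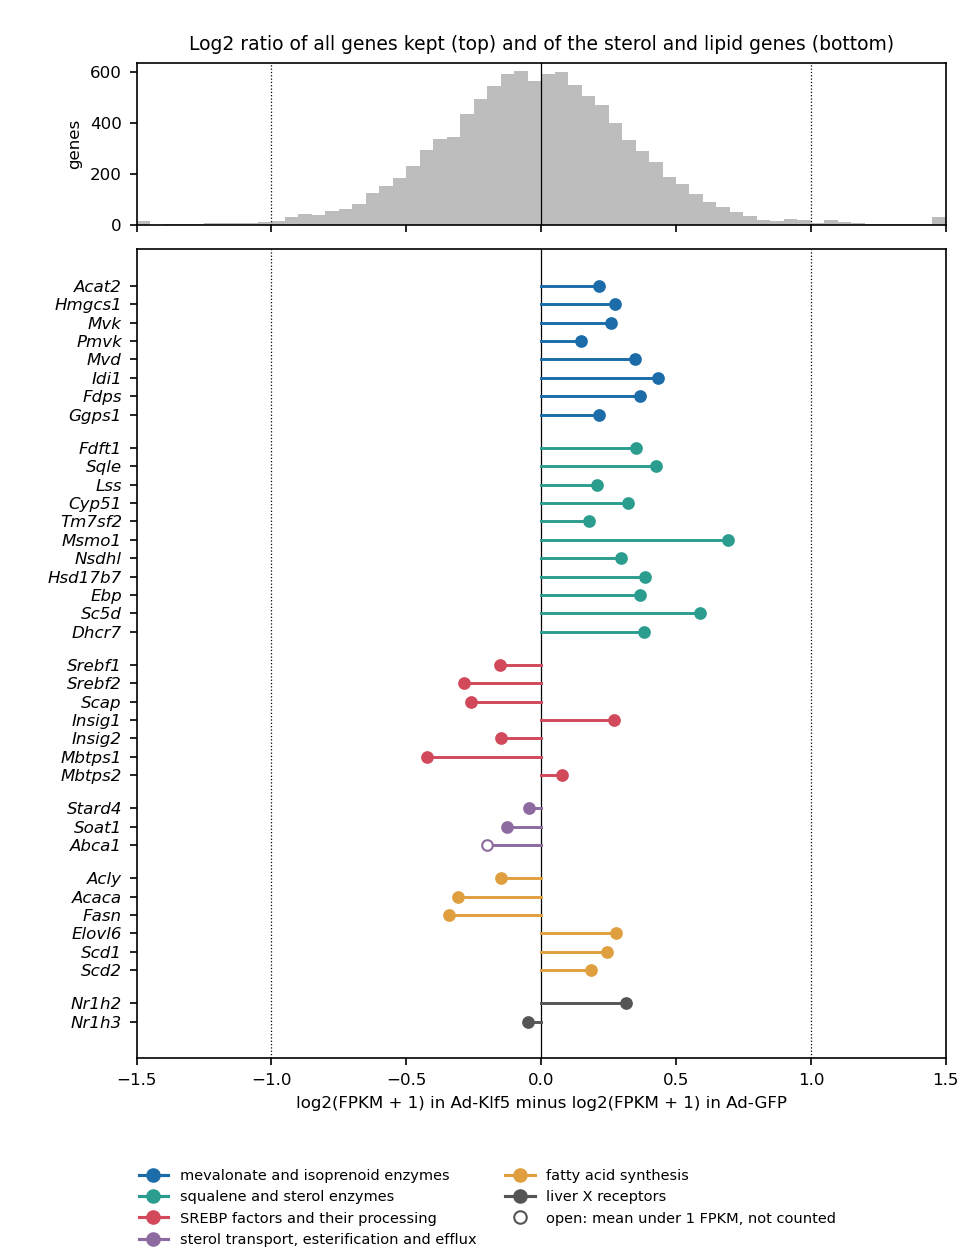
Log2 ratio of Ad-Klf5 over Ad-GFP for all 10157 genes kept (histogram at the top, whose outermost bars hold the genes beyond the axis) and for each of the 37 sterol and lipid genes (points, colored by role, with dotted lines at 2-fold). All 19 enzymes lie right of 0, with Msmo1 at 0.69 and Pmvk at 0.15 as the extremes, and Srebf2, Scap and Mbtps1 lie left of it. Abca1, under the minimum, is drawn open.

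The mevalonate and isoprenoid enzymes began the pathway with 598 FPKM in sum in Ad-Klf5 and 486 FPKM in Ad-GFP (1.23-fold), and all 8 had a ratio above 0 (median 0.27). Acat2, the cytosolic thiolase that joins acetyl-CoA units, was at 121 FPKM in Ad-Klf5 and 105 FPKM in Ad-GFP (log2 ratio 0.21). HMG-CoA synthase, Hmgcs1 (ENSMUSG00000093930.2, chromosome 13 from 119690379 to 119708260), was at 43.6 FPKM in Ad-Klf5 and 35.8 FPKM in Ad-GFP (0.28). Mevalonate is then phosphorylated by a pair of kinases and decarboxylated. Mvk, the first kinase, had 38.2 FPKM in Ad-Klf5 and 31.7 FPKM in Ad-GFP (0.26). Pmvk, the second, had 59.6 FPKM in Ad-Klf5 and 53.7 FPKM in Ad-GFP (0.15), the smallest ratio of the 19 enzymes. The decarboxylase Mvd reached 91.9 FPKM in Ad-Klf5, against 72.1 FPKM in Ad-GFP (0.35). These steps so differed by similar small amounts.

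Isopentenyl diphosphate isomerase, Idi1 (ENSMUSG00000058258.14, chromosome 13 from 8885501 to 8892451), had 24.3 FPKM in Ad-Klf5, against 17.7 FPKM in Ad-GFP, and its ratio of 0.43 was the highest of the mevalonate branch. Farnesyl diphosphate synthase Fdps, the branch point to squalene and to prenyl groups, was the most abundant of the 19 enzymes at 215 FPKM in Ad-Klf5, against 166 FPKM in Ad-GFP (0.37). Ggps1, which lengthens farnesyl to geranylgeranyl diphosphate for protein prenylation, was low in both libraries at 4.57 FPKM in Ad-Klf5 and 3.80 FPKM in Ad-GFP (0.21). Some of these genes share sequence with others, so their reads may be split or borrowed. Of the 50-base windows in its transcripts, Acat2 shared 39.1% (with Acat3), Fdps 26.2% (mostly with Gm43738, which overlaps it on the same strand) and Idi1 17.7% (with Gm13502).

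In the squalene and sterol branch all 11 enzymes lay above 0 (median ratio 0.37), and their sum was 383 FPKM in Ad-Klf5, against 295 FPKM in Ad-GFP (1.30-fold). The largest ratios of the whole set fell at the C4 demethylation and C5 desaturation of the sterol rings. Msmo1 (ENSMUSG00000031604.10, chromosome 8 from 64718139 to 64733792), the methylsterol monooxygenase that starts removal of the C4 methyl groups, was at 26.3 FPKM in Ad-Klf5 and 15.9 FPKM in Ad-GFP, 1.62-fold apart on the FPKM + 1 scale, and 97.4% of all genes kept had a lower ratio. Sc5d (ENSMUSG00000032018.14, chromosome 9 from 42251595 to 42264256), the C5 desaturase, was at 11.2 FPKM in Ad-Klf5 and 7.09 FPKM in Ad-GFP, with a ratio of 0.59 that lay above 95.7% of genes. The enzymes beside Msmo1 in the C4 demethylation complex had smaller ratios. Nsdhl, the sterol dehydrogenase, was at 50.1 FPKM in Ad-Klf5 and 40.6 FPKM in Ad-GFP (0.30). Hsd17b7, the ketoreductase, was low at 4.95 FPKM in Ad-Klf5 and 3.55 FPKM in Ad-GFP (0.39).

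Squalene itself is made by Fdft1, which was at 42.3 FPKM in Ad-Klf5 and 32.9 FPKM in Ad-GFP (0.35). Of its exon bases 18.3% overlap Ctsb on the opposite strand. Sqle, the squalene epoxidase and a rate-limiting step of the pathway, was at 51.3 FPKM in Ad-Klf5 and 38.0 FPKM in Ad-GFP (0.43), and Lss, which folds the epoxide into lanosterol, at 17.1 FPKM in Ad-Klf5 and 14.7 FPKM in Ad-GFP (0.21). The ratios of neighboring steps thus differed by amounts that cannot be judged without replicates. Cyp51, the lanosterol demethylase, was the most abundant enzyme after squalene with 90.5 FPKM in Ad-Klf5 and 72.1 FPKM in Ad-GFP (0.32). Tm7sf2, a C14 sterol reductase, had 13.2 FPKM in Ad-Klf5 and 11.6 FPKM in Ad-GFP (0.18), the smallest ratio of this branch, and 12.1% of its exon bases overlap Vps51 on the same strand. Late steps were again all above 0. Ebp, the sterol isomerase, was at 58.0 FPKM in Ad-Klf5 and 44.7 FPKM in Ad-GFP (0.37). Dhcr7, which reduces 7-dehydrocholesterol in the last step of one route to cholesterol, was at 17.8 FPKM in Ad-Klf5 and 13.4 FPKM in Ad-GFP (0.38).

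**Figure D2:**
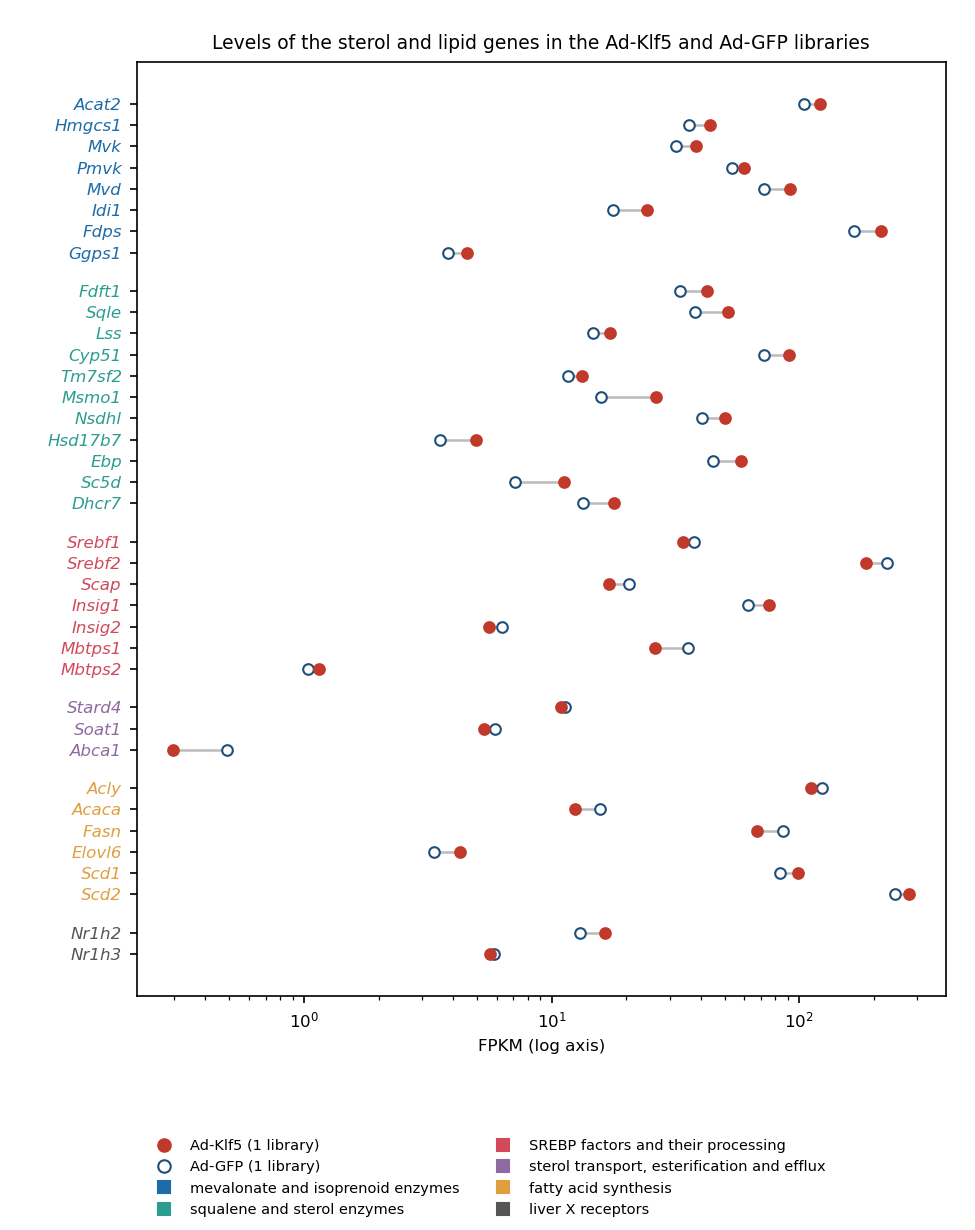
FPKM of the 37 sterol and lipid genes in the Ad-Klf5 library (filled) and the Ad-GFP library (open), on a log axis, with gene names colored by role and a line joining the 2 values of a gene. In the 2 upper blocks, the 19 enzymes, each filled point lies right of its open one. Scd2, at 277 FPKM in Ad-Klf5 and 244 FPKM in Ad-GFP, is the highest gene and Abca1 the lowest.

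The regulators of the pathway lay on both sides of 0. Of the 7 genes of the SREBP factors and their processing, 2 had a ratio above 0 and 5 below 0 (median -0.15), beside 52.1% of all genes below 0, and with so few genes nothing is read from that count. Srebf2, the factor that acts mostly on cholesterol genes, was among the most abundant genes of the set at 186 FPKM in Ad-Klf5, against 226 FPKM in Ad-GFP (-0.28). Srebf1, which acts more on fatty acid genes, was at 33.8 FPKM in Ad-Klf5 and 37.7 FPKM in Ad-GFP (-0.15). The table sums the transcripts of Srebf1, so its isoforms are not told apart. Scap, the sterol-sensing escort, was at 17.0 FPKM in Ad-Klf5 and 20.5 FPKM in Ad-GFP (-0.26).

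The Golgi proteases had ratios on either side of 0. Mbtps1 (ENSMUSG00000031835.16, chromosome 8 from 119508156 to 119558735), the site-1 protease, was at 26.2 FPKM in Ad-Klf5 and 35.4 FPKM in Ad-GFP, and its ratio of -0.42 was the lowest of the set. Mbtps1 is a long gene, and centered on the median of all genes of similar length its ratio was -0.29. Mbtps2, the site-2 protease, was near the minimum at 1.15 FPKM in Ad-Klf5 and 1.04 FPKM in Ad-GFP (0.076), and 28.9% of its 50-base windows are shared with other genes, chiefly Yy2, whose exons overlap it on the same strand. Insig1 and Insig2, the retention proteins, also had ratios of opposite sign. Insig1, itself an SREBP target, was at 75.3 FPKM in Ad-Klf5 and 62.3 FPKM in Ad-GFP (0.27), within the range of the synthesis enzymes. Insig2 was at 5.59 FPKM in Ad-Klf5 and 6.30 FPKM in Ad-GFP (-0.15). The pair shared no 50-base window.

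The genes of sterol transport, esterification and efflux were at low to moderate levels. Stard4, a soluble sterol carrier and an SREBP target, was at 10.9 FPKM in Ad-Klf5 and 11.3 FPKM in Ad-GFP (-0.043). Soat1, which esterifies cholesterol for storage, was at 5.35 FPKM in Ad-Klf5 and 5.92 FPKM in Ad-GFP (-0.12). Abca1, the efflux pump for cholesterol and a liver X receptor target, was at 0.297 FPKM in Ad-Klf5 and 0.489 FPKM in Ad-GFP, under the minimum of 1 FPKM, and was not counted. The receptors themselves were Nr1h2 (LXR-beta), at 16.5 FPKM in Ad-Klf5 and 13.1 FPKM in Ad-GFP (0.31), and Nr1h3 (LXR-alpha), at 5.65 FPKM in Ad-Klf5 and 5.88 FPKM in Ad-GFP (-0.048).

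The genes of fatty acid synthesis lay evenly on both sides of 0, as all genes nearly did. The 6 genes summed to 572 FPKM in Ad-Klf5 and 556 FPKM in Ad-GFP (median ratio 0.016). Those below 0 were the enzymes that lead from citrate to palmitate. ATP-citrate lyase, Acly, was at 111 FPKM in Ad-Klf5 and 124 FPKM in Ad-GFP (-0.15). Acetyl-CoA carboxylase, Acaca, was at 12.5 FPKM in Ad-Klf5 and 15.7 FPKM in Ad-GFP (-0.31), with 30.4% of its windows shared, mostly with Gm5182. Fatty acid synthase, Fasn, was at 67.7 FPKM in Ad-Klf5 and 86.1 FPKM in Ad-GFP (-0.34). Acaca and Fasn are long genes, and centered on genes of similar length the ratios were -0.17 for Acaca, -0.20 for Fasn and -0.074 for Acly. Those above 0 were enzymes that elongate or desaturate the product. The elongase Elovl6 was at 4.27 FPKM in Ad-Klf5 and 3.34 FPKM in Ad-GFP (0.28). The stearoyl-CoA desaturases Scd1 and Scd2, both SREBP targets, were among the most abundant genes. Scd1 had 99.2 FPKM in Ad-Klf5 and 83.5 FPKM in Ad-GFP (0.25), and Scd2 had 277 FPKM in Ad-Klf5 and 244 FPKM in Ad-GFP (0.18), above more than 98% of all genes in both libraries. They shared 3.0% of the windows of Scd1, so most reads could be told apart.

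Other genes around the pathway were read from lists of non-members. In the isoprenoid branches beyond farnesyl diphosphate, none of 14 genes was 2-fold apart on the FPKM + 1 scale (median -0.068). The highest was Pdss1, a ubiquinone side chain synthase, at 1.90 FPKM in Ad-Klf5 and 0.822 FPKM in Ad-GFP (0.67). The lowest was Fntb, the farnesyltransferase beta subunit, at 4.51 FPKM in Ad-Klf5 and 9.45 FPKM in Ad-GFP (-0.92). Without a pseudocount the FPKM of these 2 genes were 2.31-fold and 2.10-fold apart. The genes of these branches lay on either side of 0. Of 14 genes for sterol-regulated degradation and control, none was 2-fold apart (median 0.083), with Tmem97, a sterol-responsive membrane protein, at 102 FPKM in Ad-Klf5 and 64.4 FPKM in Ad-GFP (0.66) and Rnf145, a ubiquitin ligase, at 12.6 FPKM in Ad-Klf5 and 17.9 FPKM in Ad-GFP (-0.47). Of 18 other lipogenic genes none was 2-fold apart on the FPKM + 1 scale (median -0.14), from Elovl1, an elongase of very long chains, at 0.41 to Acacb, the mitochondrial acetyl-CoA carboxylase, at 1.67 FPKM in Ad-Klf5 and 4.31 FPKM in Ad-GFP (-0.99). The FPKM of Acacb were 2.57-fold apart, and those of Gpam, an acyltransferase of glycerolipid synthesis named after its values were seen, were lower by 2.02-fold in Ad-Klf5.

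Of the 66 genes kept in these lists, 2 were 2-fold apart on the FPKM + 1 scale, beside 0.975% of all genes higher and 0.679% lower. With so few genes nothing is read from that count. Both were in the list of lipoprotein uptake and sterol handling. With a pseudocount of 0.1 there were 5, the others being Pdss1, Fntb and Acacb, with a pseudocount of 5 only Lrp1 was left, and scaled to a common FPKM sum there were 4. Among the 16 genes kept of the uptake and handling list (median -0.098), Cav1, the caveolin that coats sterol-rich membrane pits, was higher. It was at 7.73 FPKM in Ad-Klf5, against 2.96 FPKM in Ad-GFP (1.14), and with a pseudocount of 5 its ratio was 0.68. Lrp1, a large lipoprotein receptor, was lower at 44.1 FPKM in Ad-Klf5, against 101 FPKM in Ad-GFP (-1.17, and -1.04 centered on genes of similar length). Scarb1, the HDL receptor, named here after its values were seen, was at 17.9 FPKM in Ad-Klf5 and 17.3 FPKM in Ad-GFP (0.042). Of 5 further liver X receptor partners and targets none was 2-fold apart, between 0.51 for Arl4c and -0.45 for Rxra.

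The ratio of a gene was related to its length over the whole table. With all genes put into 5 equal bins by exon length, the median ratio was 0.12 in the bin of the shortest genes, with 65.3% of them above 0, and in the bin of the longest it was -0.14 with 34.6% above 0 (Spearman's rho across 10142 genes -0.26, a description, since the genes share both libraries). The 19 synthesis enzymes had a median exon length of 4403 bases, near the 4334 bases of all genes, whereas the 7 SREBP genes had 7184 bases. Among the long genes, Mbtps1, Acaca and Fasn were below 0, and Lss and Mbtps2 were above it. Over the 36 sterol and lipid genes kept rho was -0.40, with the same sign as over all genes. Over the 19 enzymes alone it was 0.36, opposite in sign to that of all genes. Centered on the median of all genes of similar length, the 19 enzymes were still all above 0 with a median of 0.35, from 0.024 for Pmvk to 0.77 for Msmo1. The SREBP genes then had a median of -0.12, and Stard4 (0.033) and Soat1 (0.015) lay on the other side of 0. The part of transcript length in single ratios was not tested further.

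**Figure D3:**
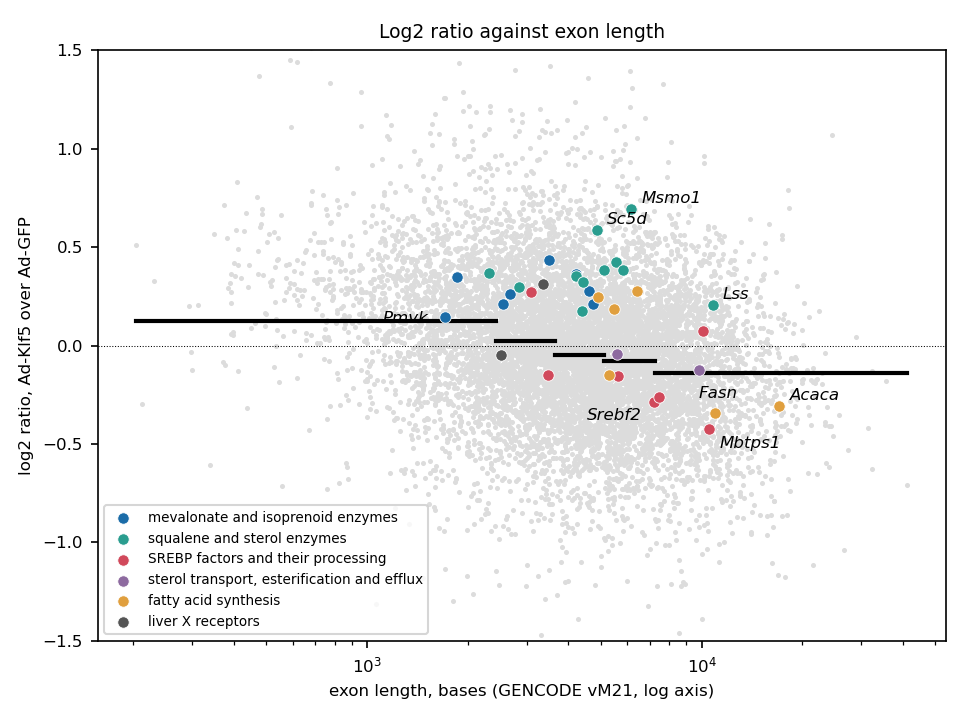
Log2 ratio of Ad-Klf5 over Ad-GFP against exon length for the genes kept (gray; a few genes lie beyond the vertical axis) and for the sterol and lipid genes (colored by role). Black bars give the median of all genes in each of 5 bins of exon length, 0.12 in the bin of the shortest and -0.14 in that of the longest genes, and Msmo1 and Sc5d lie above the bars of their bins.

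The libraries were checked for the infection and for the cell type. Klf5 (chromosome 14 from 99298691 to 99315036) was at 2.62 FPKM in Ad-Klf5 and 1.76 FPKM in Ad-GFP, a ratio of 0.39 that is under 2-fold, and whether this counts the viral transcript is not given in the sources used here. Of 9 smooth muscle markers 8 were analysed, summing to 281 FPKM in Ad-Klf5 and 313 FPKM in Ad-GFP. Most of each sum was Acta2, at 201 FPKM in Ad-Klf5 and 229 FPKM in Ad-GFP. Tagln was at 14.4 FPKM in Ad-Klf5 and 10.3 FPKM in Ad-GFP. Des was at 1.77 FPKM in Ad-Klf5 and 1.76 FPKM in Ad-GFP. Cnn1, a contractile marker, was near 0 at 0.860 FPKM in Ad-Klf5 and 0.782 FPKM in Ad-GFP. The 7 markers averaging 1 FPKM or more lay on both sides of 0, from -0.58 for Lmod1 to 0.44 for Tagln. Of 7 mesothelial markers 5 were analysed and 4 were 2-fold higher in Ad-Klf5, beside 0.975% of all genes kept higher and 0.679% lower. The sum of the 5 was 127 FPKM in Ad-Klf5, against 24.0 FPKM in Ad-GFP. Msln led at 55.9 FPKM in Ad-Klf5 and 4.66 FPKM in Ad-GFP. The fibroblast marker Pdgfra was 2-fold lower, at 4.62 FPKM in Ad-Klf5, against 13.7 FPKM in Ad-GFP, while Dcn was at 72.1 FPKM in Ad-Klf5 and 75.5 FPKM in Ad-GFP. The macrophage markers analysed were Cd14, at 9.31 FPKM in Ad-Klf5 and 13.5 FPKM in Ad-GFP, and Cd68, at 0.938 FPKM in Ad-Klf5 and 0.229 FPKM in Ad-GFP. Myh11 and the 5 endothelial and 5 adipocyte markers were not among the 11263 genes available, so nothing is read of their levels. The part of these other cell markers in the ratios of the sterol genes was not tested, and fewer cells of a type and less RNA per cell cannot be told apart in such bulk libraries. The FPKM of all genes summed to 300045 in Ad-Klf5 and 278962 in Ad-GFP. Scaled to a common sum, the median of all genes was -0.11 and that of the 19 enzymes 0.24, and all 19 remained above 0.

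**Figure D4:**
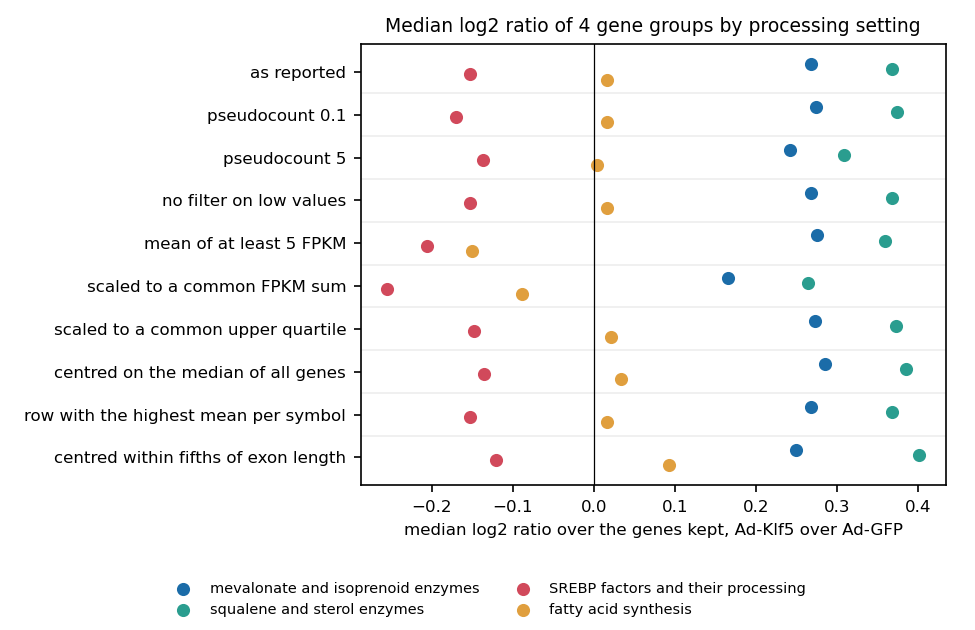
Median log2 ratio of Ad-Klf5 over Ad-GFP for 4 groups of genes as reported (top line) and under 9 other settings, 1 per line. The enzymes of both branches stay right of 0 and the SREBP genes left of it on every line, and fatty acid synthesis lies on either side of 0, from -0.15 to 0.093.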

How the data were processed

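RNA of the Ad-Klf5 and Ad-GFP libraries, 1 of each in the labels, was analysed, and samples were grouped by their titles. The authors deposited FPKM for each named library. Their table further holds group means on the log2 scale under headings that name no condition, and fold changes with p-values from their own comparison, none of which were used. As tools, the notes of the submitters list HISAT2 2.0.5, STAR 2.5.2b, StringTie and cutadapt, with the build mm8, while the study's methods name HTSeq and the human genome. Coordinates match GRCm38, since GENCODE vM21 holds 11255 of the 11275 gene IDs and 10291 rows have its start and end. The labels also name another cell line, a lentivirus and another medium than the study. Whether counting used strand is not given in the sources used here. No read counts were used, so the depth behind each FPKM is unknown and no interval is given.

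Rows sharing a symbol were summed, and log2 ratios with a pseudocount of 1 were taken for genes averaging 1 FPKM or more. Higher and lower are used of single genes from 2-fold. Lists were described by counts and medians beside all genes, and no test was run because each condition has 1 library. Promoters (RefSeq, GRCm38.p6) were searched by letters, a gene with several starts counting once if any of its windows held the motif, and 50-base windows of the GENCODE transcripts were compared between genes. Every gene of the set was named, and from each list of other genes those 2-fold apart or, with none, the highest and the lowest. The genes and lists were chosen with earlier results of these data known. Alternatives were 2 pseudocounts, 2 filters, 3 scalings, 1 choice of rows and, chosen after seeing the data, centering within 5 bins of exon length. Only the calculation of the ratios was checked on simulated data, with known ratios put on the Ad-GFP levels without noise. Tools were matplotlib 3.10.9, scipy 1.17.1, pandas 2.3.3 and numpy 2.4.6 on Python 3.11.15.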

Additional observations from a re-analysis of the deposited data

How the results depend on the processing

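No sterol or lipid gene was 2-fold apart under any of the 9 settings, and every synthesis enzyme kept stayed above 0 (17 of 17 at a mean of at least 5 FPKM, 19 of 19 otherwise), with a median between 0.24 and 0.36. Scaled to a common FPKM sum, the median was 0.24 over the synthesis enzymes, 0.17 over the mevalonate and isoprenoid enzymes, 0.26 over the squalene and sterol enzymes, -0.25 over the SREBP genes and -0.088 over fatty acid synthesis, and 107 of all genes were 2-fold lower. Fatty acid synthesis had a median of -0.15 at a mean of at least 5 FPKM, where 65 of all genes were 2-fold higher and 45 lower. With a pseudocount of 0.1 these counts were 159 and 189, and with 5 they were 33 and 19, beside 99 and 69 as reported. The ratio of Klf5 was 0.54 with a pseudocount of 0.1 and 0.17 with 5. Centered by exon length, 27 of 36 genes were above 0. Values of single genes were counted once per gene and setting, and 56 moved by more than 0.1 while 369 did not. Of those 56 all but Soat1 (0.015 by exon length) kept their direction. Stard4 (0.033 by exon length) and Scarb1 (-0.057 at a common sum) changed sign with smaller moves. Of the other listed genes 5 were 2-fold apart with a pseudocount of 0.1, 1 with 5 and 4 at a common sum, beside 2 as reported, alternatives chosen for these lists after seeing the data. No paired analysis was possible because each condition has 1 library, and leaving out a library and count tests were not run for the same reason. The difference of the authors' group means was not run, since their headings name no condition. Depth is unknown, which limits most the genes near 1 FPKM, such as Mbtps2.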
